A study of Mus musculus with 2 samples.

Results

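The 35 genes described here encode the kinetochore and the spindle assembly checkpoint. They were taken by symbol from the gene names in the deposited feature lists, and all 35 were found among the 30905 genes listed. The cells were germinal center B cells sorted from spleens of 8-week-old C57BL/6J mice that had been immunized with SRBC, sheep red blood cells. C57BL/6J is an inbred strain, and no transgene, knockout or further treatment is named. The series holds 2 droplet libraries of this 1 group, which were read at the 3′ ends of transcripts and carry the numbers 1 and 2 in their titles. Whether they stem from separate animals, or from how many, is not stated, so the spread between libraries may be technical. Comparisons were therefore made between classes of cells inside each library.

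The kinetochore is the protein structure that assembles on centromeric chromatin and ties each chromosome to spindle microtubules. Its inner layer, the constitutive centromere-associated network, sits on nucleosomes that carry the histone variant CENP-A, and its outer layer, which includes the MIS12 and NDC80 complexes, grips the microtubule. Unattached kinetochores recruit checkpoint proteins that hold back CDC20, the activator of the anaphase-promoting complex, so that chromosomes do not separate early. In germinal centers, B cells divide mainly in the dark zone and are selected in the light zone, and cells with features of both are called gray zone cells.

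The rule kept barcodes with at least 500 detected genes, at least 1000 unique molecular identifiers (UMIs, which mark single captured RNA molecules) and at most 20% mitochondrial UMIs. It passed 5142 of 8765 barcodes in library 1 and 3526 of 7868 in library 2, with 58915363 and 41246438 UMIs and medians of 8183.5 and 8243 UMIs per cell. The libraries shared 22 barcode sequences. Of these cells, 4677 and 3135 held at least 3400 UMIs and entered the classes, each thinned at random to 3400 UMIs for class calls. Each of 11 marker genes of germinal center B cells was present, and their summed level was 3259 and 3379 counts per 1000000 UMIs (CPM). The 7 T cell markers summed to 3.57 and 5.11 CPM, with Cd3e at 0 UMIs in library 1 and 4 in library 2. Lat had the most of them, with 127 and 99 UMIs, and Trac had 55 and 66. The 4 neutrophil markers summed to 0.0347 and 0.0496 CPM, with S100a9 and Elane at 0 in both. Other lists stood higher. Naive or memory B cell markers summed to 310 and 360 CPM, and macrophage markers to 13.3 and 7.82 CPM. Plasmablast markers summed to 710 and 768 CPM, mostly from Jchain (610 and 665 CPM).

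Every member was detected in both libraries, with 434 to 20315 UMIs per gene and library over all passing cells. Summed levels lay between 9.79 and 10.5 CPM for Cenpo and 345 and 326 CPM for Cenpe in libraries 1 and 2. A 3′-end count marks 1 captured molecule and was not divided by transcript length. For most members the libraries lay close together, and the ratio of library 2 to library 1 was between 0.857 (Mis12) and 1.18 (Cdc20) in all but Cenpw. Cenpw, a histone-fold subunit of the inner network, had 54.6 CPM in library 1 and 40.7 CPM in library 2, a ratio of 0.745. Exons of Cenpb overlap those of Spef1 on the same strand, so the counts of Cenpb are uncertain. No other member overlapped a listed gene in this way.

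Cells were placed in the cell cycle with lists of 42 S phase genes and 41 G2/M phase genes that hold none of the members. G2/M-high cells were those above the upper 30% limit of summed G2/M list UMIs in their library (1418 and 945 cells), S-high cells those above the same limit for the S list and not G2/M-high (1122 and 760), and cycle-low cells those below the median of both (1283 and 775). These are ranges of a sum and not discrete states, and 172 (3.68%) and 116 (3.70%) cells lay within 1 UMI of the G2/M limit. At equal depth, a cell held a median of 15 member UMIs in the G2/M-high class of each library, 6 in S-high and 2 in cycle-low. UMIs were then summed per library and class without thinning, scaled by TMM size factors for the CPM of classes, and tested across all genes with edgeR's quasi-likelihood test, with library as a block and an adjusted p below 0.05 as the threshold. All 35 members passed the low-count filter in each comparison that follows.

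Kinetochore and checkpoint transcripts were higher in G2/M-high than in cycle-low cells for all 35 members, against 27.1% of the 10962 genes tested. The median log2 fold change of members was 2.33, and that of all genes −0.03. The NDC80 complex, which binds microtubules directly, stood at 3.04 to 3.88 on the log2 scale. Spc25 had 98.2 and 90.3 CPM in G2/M-high cells of libraries 1 and 2, against 6.96 and 5.67 CPM in cycle-low cells (log2 fold change 3.88, SE 0.11, adjusted p = 3.51e-20). Ndc80, the subunit after which the complex is named, had 88.5 and 98.0 CPM against 6.96 and 6.83 CPM (3.74, SE 0.10). Nuf2, its partner in the microtubule-binding head, had 99.8 and 102 CPM against 8.33 and 10.2 CPM. In each of these genes both G2/M-high values lay far above both cycle-low values.

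The checkpoint kinases moved with them. Ttk, the kinase that starts checkpoint signalling, had 60.3 and 55.4 CPM in G2/M-high cells and 4.22 and 5.0 CPM in cycle-low cells (log2 fold change 3.69, SE 0.12, adjusted p = 3.2e-19). Bub1, a checkpoint kinase at the kinetochore, had 68.7 and 70.7 CPM against 6.01 and 8.17 CPM (3.34, SE 0.11). Cenpf, a large coiled-coil protein of the outer corona, had 721 and 698 CPM in G2/M-high cells and 59.8 and 52.5 CPM in cycle-low cells (3.65, SE 0.05). Ska1, part of the complex that helps kinetochores follow shrinking microtubules, had 63.3 and 71.9 CPM against 4.43 and 6.83 CPM (3.64, SE 0.12). Cenpi, an inner network subunit, had 22 and 22.7 CPM against 2.43 and 1.33 CPM (3.47, SE 0.18). The smallest difference was that of Cenpb, which binds a sequence in centromeric satellite DNA, with 90.3 and 95 CPM in G2/M-high cells and 75.3 and 77.7 CPM in cycle-low cells (0.27, SE 0.06, adjusted p = 0.000197). Even there the classes did not overlap.

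Cycle-low cells differed in other ways. Their median depth was 5698 and 5976 UMIs, against 11032 and 11082 in G2/M-high cells. Summed levels of the 8 naive or memory B cell markers were 211 and 259 CPM in G2/M-high and 644 and 792 CPM in cycle-low cells, and those of the 7 macrophage markers were 4.75 and 5.92 CPM in G2/M-high and 51.6 and 16.8 CPM in cycle-low cells. Their part in the member differences was not tested.

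**Figure D1:**
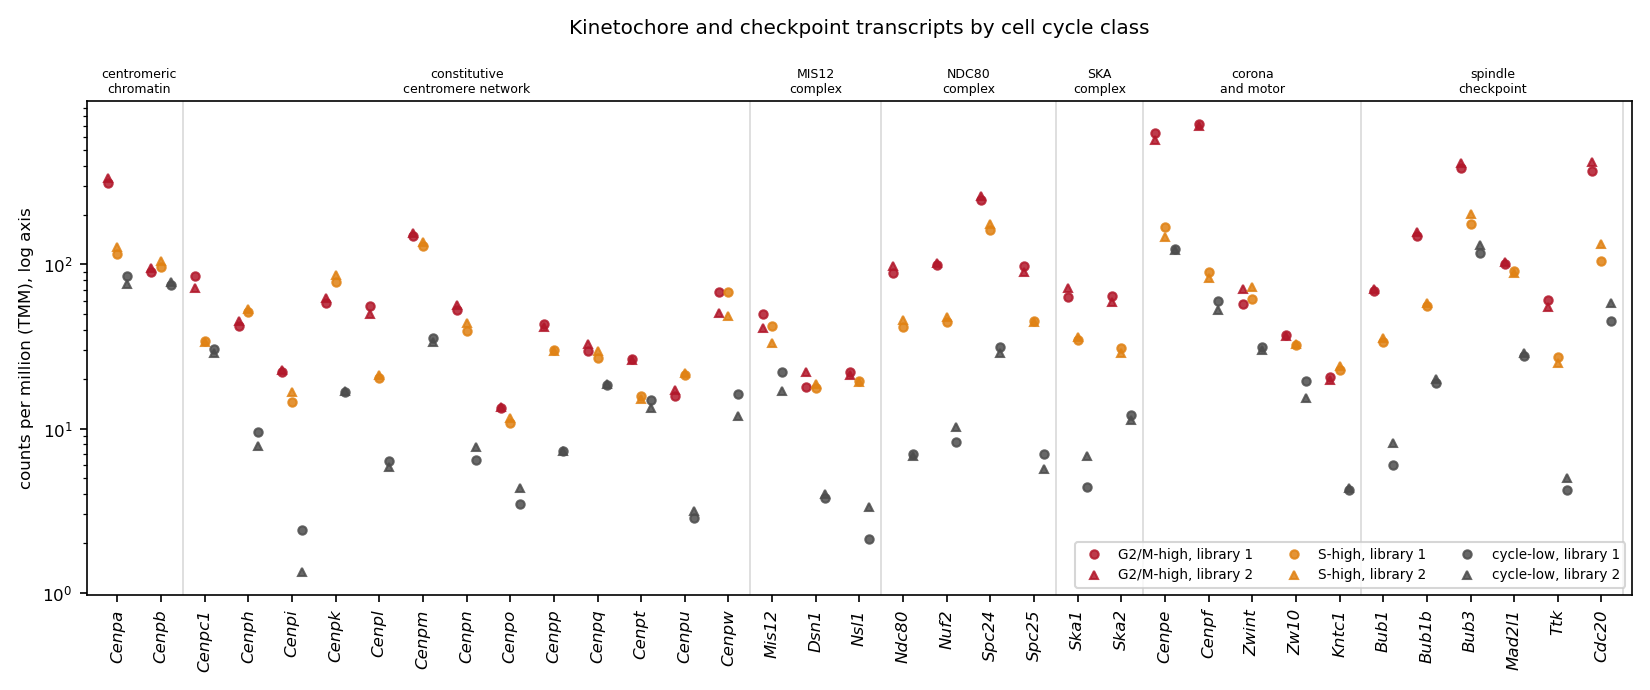
Level of each member in TMM-scaled CPM (log axis) in G2/M-high, S-high and cycle-low cells, with 1 point per library and members grouped by role. All 35 members were higher in G2/M-high than in cycle-low cells, with Cenpb the closest pair of classes (90.3 and 95 against 75.3 and 77.7 CPM).

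S-high cells also carried most of these transcripts above the cycle-low level. In this comparison 34 of 35 members were higher, against 30.9% of all genes, with a median log2 fold change of 1.93. The largest differences were those of Cenpi (2.94, SE 0.20), Nsl1 of the MIS12 complex (2.90, SE 0.18), the inner network subunit Cenpu (2.85, SE 0.16) and Spc25 (2.81, SE 0.13). Next came Ska1 (2.71), Ndc80 (2.65), Cenpn, which reads CENP-A nucleosomes (2.58), and Cenph of the inner network (2.56). Cenpu had 21.3 and 21.9 CPM in S-high cells and 2.85 and 3.17 CPM in cycle-low cells. Nsl1 had 19.5 and 19.2 CPM against 2.11 and 3.33 CPM. Cenpt, an inner network subunit that reaches out to NDC80, did not pass the test, with 15.8 and 15.2 CPM in S-high and 15 and 13.3 CPM in cycle-low cells (0.12, SE 0.11, adjusted p = 0.38). Cenpc1 passed only narrowly, with 34.3 and 33.6 CPM against 30.5 and 28.7 CPM (0.20, adjusted p = 0.047).

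Set directly against S-high cells, G2/M-high cells divided the members. Here 25 members were higher, 5 were lower and 5 did not pass, whereas 24.7% of all genes were higher and 26.5% lower. The median log2 fold change was 0.53 for members and −0.0066 for all genes. All 6 checkpoint genes, all 4 NDC80 subunits and both SKA subunits were higher. Cenpf had 721 and 698 CPM in G2/M-high cells, against 90.1 and 82.6 CPM in S-high cells (3.04, SE 0.05, adjusted p = 5e-25). Cenpe, the kinesin motor that carries chromosomes along microtubules, had 629 and 575 CPM against 168 and 147 CPM (1.93, SE 0.04). Cdc20, both the target of the checkpoint and the activator of the anaphase-promoting complex, had 373 and 423 CPM against 105 and 133 CPM (1.75, SE 0.05). These 3 genes showed the widest gaps between the classes.

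Further down, Bub1b, which encodes the checkpoint protein BubR1, had 149 and 158 CPM in G2/M-high cells and 55.7 and 58.2 CPM in S-high cells (1.43, SE 0.05). Cenpa, the centromeric histone variant itself, had 312 and 338 CPM against 116 and 128 CPM (1.41, SE 0.05). The inner network gene Cenpl had 55.4 and 50.1 CPM against 20.2 and 21.1 CPM (1.36, SE 0.07). Cenpc1, the scaffold of the inner kinetochore and close to the cycle-low level in S-high cells, had 84.6 and 72.1 CPM in G2/M-high against 34.3 and 33.6 CPM in S-high cells (1.22, SE 0.06). Ttk stood at 1.14 (SE 0.07). Among checkpoint genes the smallest difference was that of Mad2l1, which encodes MAD2, with 100 and 103 CPM in G2/M-high and 90.8 and 88.0 CPM in S-high cells (0.18, SE 0.05, adjusted p = 0.0039).

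The 5 members lower in G2/M-high than in S-high cells included 3 of the 13 inner network genes. Of the other inner network genes, 8 were higher, against 24.7% of all genes, and 2 were not called. Cenpi, Cenpm, Cenpo and Cenpp were among the 8, and the median log2 fold change over the 13 was 0.27. Cenpk had 58.5 and 62.8 CPM in G2/M-high cells, against 77.7 and 86.1 CPM in S-high cells (−0.43, SE 0.06, adjusted p = 4.13e-07). Cenpu had 15.7 and 17.1 CPM against 21.3 and 21.9 CPM (−0.40, SE 0.08), and Cenph had 42.2 and 45.1 CPM against 51.3 and 53.4 CPM (−0.27, SE 0.07). In each of these 3 genes both G2/M-high values lay below both S-high values. Kntc1, a corona protein that works with Zw10 (−0.21, adjusted p = 0.042), and Cenpb (−0.12, adjusted p = 0.048) were also lower, close to the threshold. Not called were Zwint at −0.07, Cenpw at 0.02, Dsn1 at 0.12, Cenpq at 0.13 and Nsl1 at 0.16.

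Cells of each library were also ranked by their G2/M list sum and cut into 10 equal parts. Cenpf had 13.1, 41.0, 95.9, 239 and 626 CPM in parts 1, 3, 5, 7 and 9 of library 1 and 1138 CPM in the highest, and ended at 1166 CPM in library 2. Cdc20 had 5.42 CPM in the lowest and 447 CPM in the highest part of library 1, and 10.6 and 556 CPM in library 2. In all, 21 of 35 members had their highest level in the highest part in both libraries. Cenpk had its highest level in the sixth part of library 1 (68.9 CPM, against 55.9 CPM in the highest part) and in the seventh of library 2 (72.9 against 58.8 CPM). Cenpu peaked in the sixth and eighth parts, and Cenph and Zwint, which links to the outer kinetochore scaffold KNL1, in the seventh of library 1 and the eighth of library 2. Cells were ranked on thinned counts, but the CPM of each part came from unthinned sums, so depth was not equal between parts. The parts also share their libraries, so this ranking is a description.

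**Figure D2:**
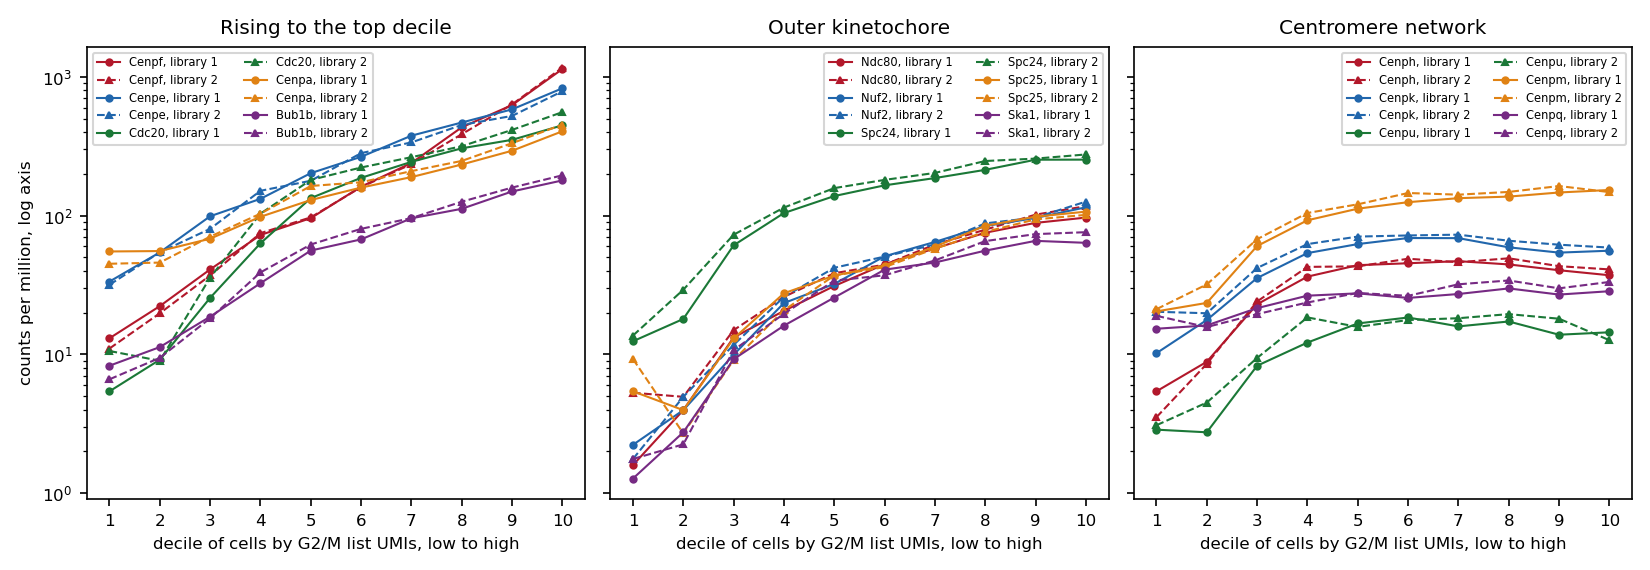
Level of members in CPM (log axis) across 10 equal parts (deciles) of the cells ranked by their G2/M list sum, low to high, with 1 line per gene and library. Cenpf and Cdc20 climb to 1138 and 447 CPM in the highest part of library 1, whereas Cenpk is highest in the middle parts at 68.9 CPM.

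Promoter sequence was set beside this split. RefSeq windows of 300 bases on GRCm38.p6, covering 250 bases before and 50 after a start site, were given for 32 of the 35 members in 35 windows, among 32851 windows in all. Searched on both strands were the cell cycle homology region (TTTGAA or TTCGAA), the CCAAT box (CCAAT) and an E2F-type element (written as TTTGGCG, also in the form TTTCGCG, in the form TTTCCCG or in the form TTTGCCG), and none of the motifs holds another. The homology region letters stood in 16 member windows (45.7%) and in 19.2% of all windows. Among members higher in G2/M-high than in S-high cells they stood in 14 of 24 windows (58.3%), and among those lower in 1 of 7, which come from 5 genes with 3 windows of Cenpk. CCAAT was found in 26 member windows (74.3%), against 37.4% of all, and the E2F-type letters in 7 (20%), against 6.70% of all. By the same split, CCAAT stood in 70.8% of the windows of higher and 85.7% of those of lower members, and the E2F-type letters in 16.7% and 28.6%. Some genes have overlapping windows, and a match to these letters is a description and not a binding site.

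The windows of 3 genes that were much higher in G2/M-high cells and 2 that were lower, each with 1 RefSeq window, are shown as examples of the split. They are printed 5′ to 3′ on the strand of the gene, with the matched letters in capitals. They lie at chr4:118437294-118437593 on the minus strand (Cdc20), chr1:189688037-189688336 on the minus strand (Cenpf), chr3:135212313-135212612 on the plus strand (Cenpe), chr13:100775850-100776149 on the minus strand (Cenph) and chr8:46551819-46552118 on the plus strand (Cenpu).
Cdc20: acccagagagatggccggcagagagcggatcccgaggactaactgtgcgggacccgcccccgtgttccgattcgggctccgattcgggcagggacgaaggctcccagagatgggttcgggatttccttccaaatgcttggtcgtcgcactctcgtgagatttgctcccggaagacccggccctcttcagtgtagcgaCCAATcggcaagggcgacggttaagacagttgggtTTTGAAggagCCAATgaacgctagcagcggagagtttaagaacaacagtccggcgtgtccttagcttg
Cenpf: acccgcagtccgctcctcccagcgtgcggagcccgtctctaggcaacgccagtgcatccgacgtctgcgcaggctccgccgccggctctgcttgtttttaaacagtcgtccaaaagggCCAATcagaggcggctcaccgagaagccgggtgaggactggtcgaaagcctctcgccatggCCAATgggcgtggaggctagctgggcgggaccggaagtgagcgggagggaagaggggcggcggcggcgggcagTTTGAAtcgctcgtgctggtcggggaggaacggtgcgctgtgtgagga
Cenpe: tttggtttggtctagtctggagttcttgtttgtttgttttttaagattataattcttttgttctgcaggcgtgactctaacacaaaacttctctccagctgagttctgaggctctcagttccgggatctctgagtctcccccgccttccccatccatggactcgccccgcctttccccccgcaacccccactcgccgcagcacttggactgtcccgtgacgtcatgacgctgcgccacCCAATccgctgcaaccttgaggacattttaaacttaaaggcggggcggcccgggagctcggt
Cenph: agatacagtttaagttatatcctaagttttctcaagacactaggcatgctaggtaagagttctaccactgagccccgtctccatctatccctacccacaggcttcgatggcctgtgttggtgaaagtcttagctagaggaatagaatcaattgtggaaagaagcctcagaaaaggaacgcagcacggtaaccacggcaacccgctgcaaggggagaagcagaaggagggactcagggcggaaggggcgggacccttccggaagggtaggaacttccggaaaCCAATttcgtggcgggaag
Cenpu: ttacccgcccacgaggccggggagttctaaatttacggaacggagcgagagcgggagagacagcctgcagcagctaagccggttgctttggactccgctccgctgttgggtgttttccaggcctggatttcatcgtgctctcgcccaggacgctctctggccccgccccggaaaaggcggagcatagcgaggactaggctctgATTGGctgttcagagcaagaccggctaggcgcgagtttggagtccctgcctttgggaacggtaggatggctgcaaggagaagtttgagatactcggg
In Cdc20 the homology region begins 18 bases before the start site and stands between 2 CCAAT boxes that begin 53 and 8 bases before it. Cenpf has it from base 3 of the transcript, with CCAAT boxes beginning 132 and 71 bases upstream. The other 3 windows hold a CCAAT box, on the opposite strand in Cenpu, and neither of the other elements.

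Zones were read from RNA of the genes used in flow cytometry, on thinned counts. The light zone gate took cells with a UMI of Cd83 or Cd86 but not Cxcr4 (1625 and 1216 cells), the dark zone gate cells with Cxcr4 and neither of the others (756 and 489), and the gray zone gate cells with both Cxcr4 and Cd83 (388 and 243). No UMI of any of the 3 was found in 1705 and 1065 cells, and 203 and 122 cells with Cxcr4 and Cd86 only were left out. Since a transcript can be missed at this depth, the gates sort the zones only in part.

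Kinetochore and checkpoint transcripts were lower in light zone gate than in dark zone gate cells for 22 of 35 members and higher for none at the adjusted threshold, nor at an unadjusted p below 0.05 in edgeR or in DESeq2. Of all 10950 genes tested, 12.2% were lower. The median log2 fold change was −0.28 for members and 0.0025 for all genes. Cdc20 had 149 and 172 CPM in light zone gate cells, against 259 and 308 CPM in dark zone gate cells (−0.82, SE 0.05, adjusted p = 3.3e-15). Cenpe had 273 and 240 CPM against 457 and 436 CPM (−0.80, SE 0.05), and Cenpf had 249 and 241 CPM against 430 and 409 CPM (−0.78, SE 0.05). In each, the light zone gate values stayed below both dark zone gate values.

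By role, all 6 checkpoint genes, all 4 NDC80 subunits and both SKA subunits were lower in light zone gate cells. Ndc80 had 39.8 and 47.8 CPM against 60.8 and 70.5 CPM in dark zone gate cells (−0.58, SE 0.07). Bub1b had 70.7 and 72.4 CPM against 99.7 and 103 CPM (−0.51, SE 0.06), and Ttk had 29.8 and 27.2 CPM against 38.6 and 41.0 CPM (−0.47, SE 0.08). Ska1 stood at −0.49 (SE 0.08). Bub3, which binds Bub1 and BubR1, changed least among the checkpoint genes, with 214 and 246 CPM against 254 and 273 CPM (−0.20, SE 0.05, adjusted p = 0.0016), and in it the classes came close. Cenpa was lower, with 159 CPM in light zone gate cells of each library and 217 and 246 CPM in dark zone gate cells (−0.54, SE 0.05).

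The inner network was split by the threshold and not by direction, since its 13 log2 fold changes ran from −0.46 to −0.04. Cenpl (−0.46), Cenpm (−0.37), Cenpp (−0.35), Cenpn (−0.32), Cenpw (−0.24) and Cenpk (−0.23) were lower in light zone gate cells, and 7 of its 13 genes did not pass, among them Cenpu with 13.1 and 14.2 CPM in light zone and 13.4 and 14.7 CPM in dark zone gate cells (−0.04, SE 0.12). The others not called were Cenpo (−0.27), Cenpq (−0.20), Cenph (−0.20), Cenpc1 (−0.17), Cenpt (−0.11) and Cenpi (−0.08). The value of Cenpo lay below those of Cenpw and Cenpk, with an SE of 0.15 against 0.08 and 0.07. None of the 3 MIS12 subunits passed in edgeR (Nsl1 −0.26, Mis12 −0.03, Dsn1 −0.01), with 1 lower at an unadjusted p below 0.05 and 0 in DESeq2. Of the corona group, Kntc1 was lower with Cenpe and Cenpf (−0.38, adjusted p = 0.0104), whereas Zwint (−0.04) and Zw10 (−0.02) did not pass, and neither did Cenpb (−0.06). Across 9 other settings that kept the library block, 11 of the 22 calls held in every one, namely Cenpa, Cenpm, Ndc80, Nuf2, Spc24, Ska1, Cenpe, Cenpf, Bub1, Bub1b and Cdc20. Summed naive or memory B cell markers were 446 and 458 CPM in light zone and 194 and 227 CPM in dark zone gate cells, and their part in these differences was not tested.

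In mean level, gray zone gate cells lay between the other gates for 20 of 35 members, above both for 7 and below both for 8, and 5 of the 20 passed in both comparisons (Cenpa, Ndc80, Cenpe, Cenpf and Bub1b). Against light zone gate cells, 8 members were higher, with 6.29% of all genes higher, and the median log2 fold change was 0.15 for members and −0.0083 for all genes. Against dark zone gate cells, 13 members were lower, with 7.26% of all genes lower, and the medians were −0.23 and −0.02. Both comparisons share the gray zone gate cells, and the share of all genes that passed in both is not given. Cenpf had 352 and 324 CPM in gray, 249 and 241 CPM in light and 430 and 409 CPM in dark zone gate cells (0.47, SE 0.05 over light, −0.31, SE 0.05 over dark). Cenpe had 348 and 314 CPM in gray, 273 and 240 CPM in light and 457 and 436 CPM in dark zone gate cells (0.37 over light, −0.43 over dark). Both genes passed in each comparison, and the gray values overlapped neither of the other gates.

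Cdc20 stood nearer the light zone gate. It had 161 and 187 CPM in gray, 149 and 172 CPM in light and 259 and 308 CPM in dark zone gate cells, and only the difference from the dark zone gate passed (−0.70, SE 0.06, adjusted p = 1.02e-10, against 0.12, adjusted p = 0.185, over light). Cenpa had 188 and 210 CPM in gray, 159 in each library in light and 217 and 246 CPM in dark zone gate cells, and passed in both comparisons. The other members higher than in light zone gate cells were Cenpt (0.39), Spc25 (0.38), Ndc80 (0.27), Bub1b (0.27) and Cenpm (0.24). Those lower than in dark zone gate cells also included Cenpw (−0.48), Cenpk (−0.44), Cenpp (−0.44), Ska1 (−0.42), Ska2 (−0.39), Bub1 (−0.37), Ndc80 (−0.31), Mad2l1 (−0.29) and Bub1b (−0.24). Spc25, with 60.7 and 63.5 CPM in gray and 56.9 and 53.3 CPM in dark zone gate cells, did not pass (0.16). Neither did any MIS12 subunit in edgeR in either comparison, with 0 over light and 1 over dark at an unadjusted p below 0.05.

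The gray zone counts depended on how cells were gated. With gates on unthinned counts, the gray zone gate held 1369 and 980 cells. There 25 members were higher than in light zone gate cells. Against dark zone gate cells 6 were higher and 1 lower, so that the direction turned. At a mitochondrial limit of 10%, 2 were higher than in light and 5 lower than in dark zone gate cells. The share of all genes called in these settings is not given. Cenpe alone held its call in every setting with the library block in both comparisons. Summed naive or memory B cell markers were 446 and 497 CPM in gray zone gate cells, near the light zone gate level, and their part was not tested.

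**Figure D3:**
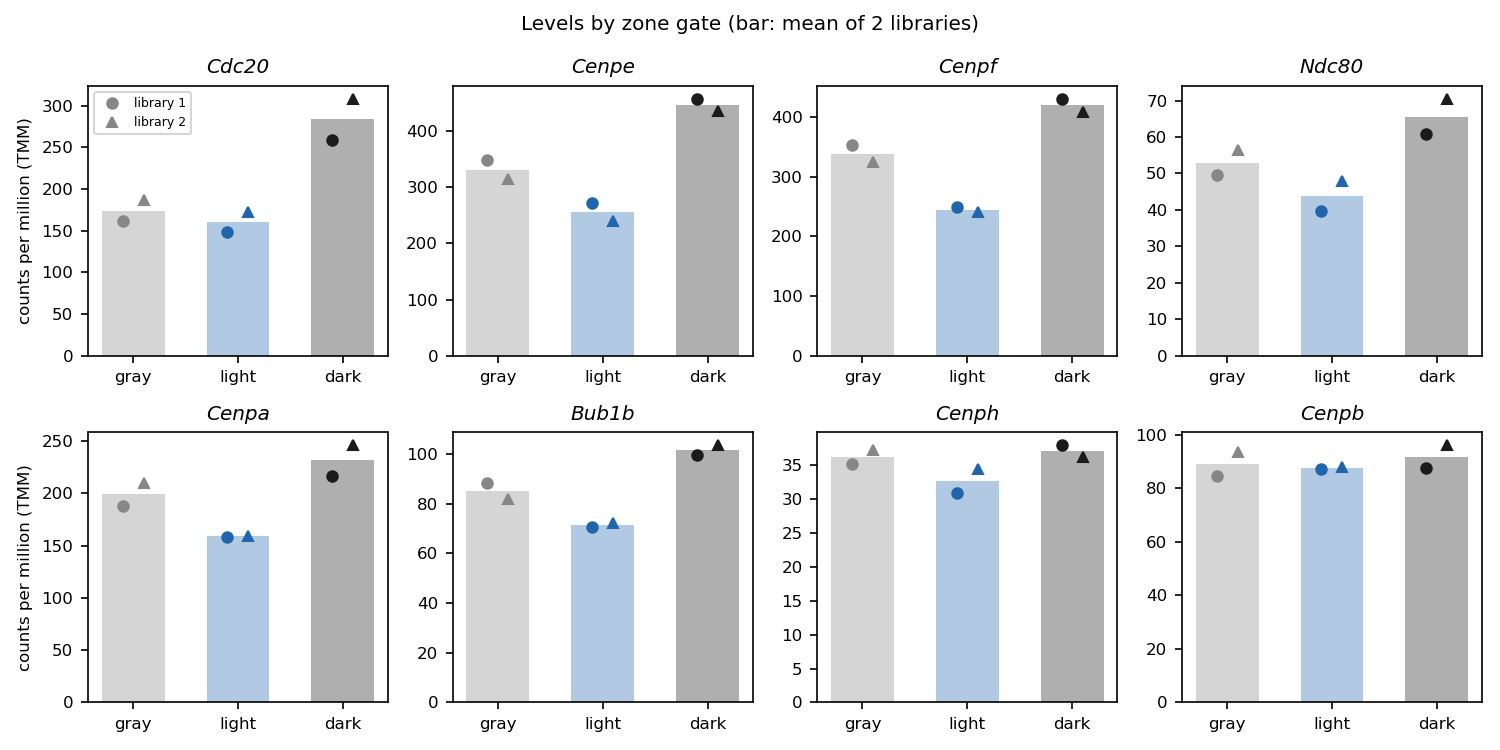
Level of 8 members in TMM-scaled CPM in gray, light and dark zone gate cells, as bars from 0 for the mean of 2 libraries with 1 point per library. With these gates on thinned counts, Cenpf and Cenpe in gray zone gate cells (352 and 324, 348 and 314 CPM) lie between the other gates. Cdc20 lies near the light zone gate. Gates on unthinned counts, where the direction of called members over the dark zone gate turned, are not drawn.

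The gates also differed in how many cells were G2/M-high. Of light zone gate cells 22.1% (exact 95% interval 20.1 to 24.2) in library 1 and 23.2% (20.8 to 25.7) in library 2 were G2/M-high, against 38.9% (35.4 to 42.5) and 36.6% (32.3 to 41.0) of dark zone gate cells. Of gray zone gate cells 32.5% (27.8 to 37.4) and 32.5% (26.7 to 38.8) were G2/M-high. The differences were −15.1 ± 2.39 points for light minus dark, 9.85 ± 0.751 for gray minus light and −5.25 ± 1.64 for gray minus dark (SD, n = 2 libraries). These intervals cover counting error only, and 2 libraries of 1 group allow no permutation test. Gray and dark intervals overlap in both libraries. The order of gray and dark turned with gates and phases on unthinned counts (36.4% and 38.2% of gray, against 33.1% and 34.6% of dark zone gate cells). Without the deepest 5% of cells, gray minus dark was −11.2 points in library 1 and 0.078 in library 2. With gates of at least 2 UMIs, gray minus light was 12.2 points in library 1 and −12.2 in library 2, where 14 gray zone gate cells were left.

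**Figure D4:**
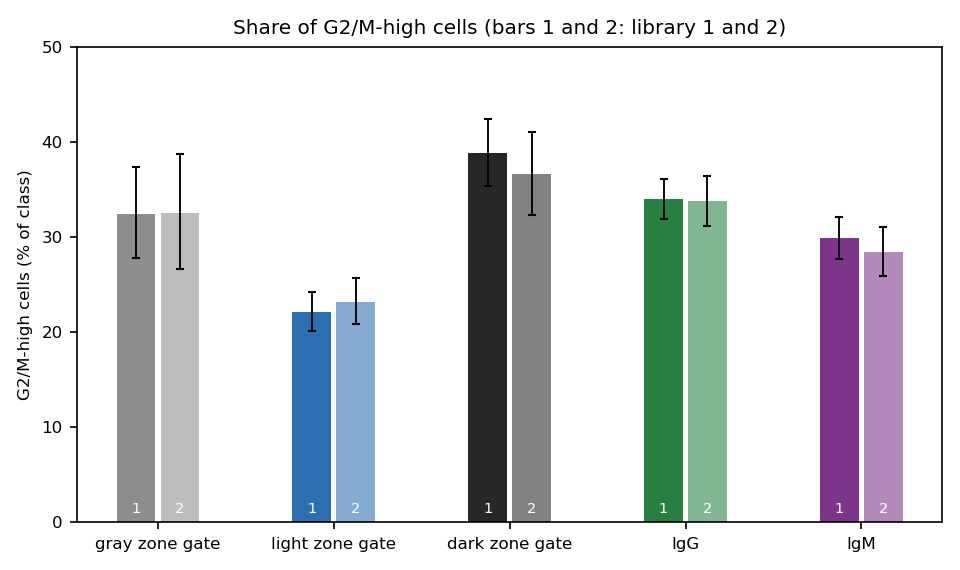
Share of G2/M-high cells in percent by zone gate and by isotype, with 1 bar per library and exact 95% intervals that cover counting error. Light zone gate cells have the lowest shares of the zone gates (22.1% and 23.2%) and dark zone gate cells the highest (38.9% and 36.6%) with these gates, an order of gray and dark that turns with gates on unthinned counts.

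Among G2/M-high cells alone, 3 members remained lower in light zone gate than in dark zone gate cells, against 2.46% of the 9607 genes tested. Cdc20 had 325 and 341 CPM in light zone gate cells and 378 and 434 CPM in dark zone gate cells (−0.28, SE 0.06, adjusted p = 0.0017). Cenpe had 586 and 503 CPM against 647 and 628 CPM (−0.23, SE 0.05), and Cenpf had 665 and 612 CPM against 744 and 750 CPM (−0.22, SE 0.05). In all 3 the classes did not overlap. The median over members was −0.05, and it was −0.12 in library 2 but 0.0057 in library 1. Of the 32 not called, values ran from −0.40 (Kntc1) to 0.29 (Dsn1), and at a mitochondrial limit of 10% edgeR called 0 members, with 3 lower and 1 higher at an unadjusted p below 0.05. Light zone gate cells of the class had a median of 54 G2/M list UMIs in each library, against 56 and 57 in dark zone gate cells. The class is smaller than the gates as a whole, with 359 and 282 light zone and 294 and 179 dark zone gate cells.

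Isotypes were read from heavy chain constant region UMIs, with at least 5 and at least 80% of them from Ighg genes (IgG, 2024 and 1315 cells) or from Ighm and Ighd (IgM, 1656 and 1207 cells). IgG cells had 4 members higher than IgM cells and 0 lower, also at an unadjusted p below 0.05, in edgeR and in DESeq2. The 4 higher members compare with 8 at an unadjusted p below 0.05, and with 2 called by DESeq2. Of the 11211 genes tested, 5.18% were higher at the adjusted threshold. At an unadjusted p below 0.05 in edgeR, 2788 of them passed in either direction. The median log2 fold change of members was 0.07. Cenpe had 376 and 343 CPM in IgG cells, against 328 and 297 CPM in IgM cells (0.20, SE 0.03, adjusted p = 1.31e-06). Cenpf had 356 and 337 CPM against 318 and 298 CPM (0.17, SE 0.03). Cenpm (0.13, adjusted p = 0.0303) and Cdc20 (0.11, adjusted p = 0.0318) passed closer to the threshold. In Cdc20 the isotypes overlapped across libraries, with 219 and 254 CPM in IgG and 211 and 226 CPM in IgM cells. Within each library the IgG value was the higher.

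The other 31 members did not pass, with values from −0.06 (Cenpa) to 0.16 (Mis12). Bub3 had 250 and 263 CPM in IgG and 244 and 266 CPM in IgM cells, and Ndc80 had 53.7 and 55.5 CPM against 51.3 and 57.3 CPM. G2/M-high cells made up 34.0% and 33.8% of IgG cells and 29.9% and 28.4% of IgM cells, a difference of 4.72 ± 0.881 points (SD, n = 2 libraries). At a mitochondrial limit of 10% it was −0.027 points in library 1 and 5.59 in library 2. Within G2/M-high cells, Cenpe alone was higher in IgG cells (650 and 589 CPM against 582 and 532 CPM, 0.15, SE 0.04, adjusted p = 0.0192), where 1.51% of 9860 genes were higher, and 0 members were lower in edgeR (1 at an unadjusted p below 0.05) and 0 in DESeq2. The median over members there was −0.02, at −0.04 without library 2 and 0.02 without library 1. None of the isotype calls held in every other setting with the library block. Summed naive or memory B cell markers, a list that holds Ighd, were 204 and 218 CPM in IgG and 423 and 503 CPM in IgM cells, and their part was not tested.

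A list of 22 other kinetochore and centromere genes and another of 19 anaphase-promoting complex genes were followed alongside. All 22 were higher in G2/M-high than in cycle-low cells (median 2.60), against 27.1% of all genes, among them Sgol2a, a protector of centromeric cohesion (4.45), Oip5, which helps to load CENP-A (3.52), and Incenp of the chromosomal passenger complex (3.43). In light zone gate cells 14 of the 22 were lower than in dark zone gate cells (median −0.34), against 12.2% of all genes, led by Sgol2a (−0.69), Cdca8 (−0.57), Ska3 (−0.57) and Birc5 (−0.53). Sgol2a had 50.4 and 49.6 CPM in light zone gate cells, against 86 and 74.8 CPM in dark zone gate cells.

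The second list covers the anaphase-promoting complex, the ubiquitin ligase that Cdc20 activates, with its partners. Of the 19 genes 15 were higher in G2/M-high than in cycle-low cells, against the same 27.1% of all genes, with a median of 0.59, and the largest values were those of Espl1, which encodes separase (3.76), the ubiquitin-conjugating enzymes Ube2c (3.45) and Ube2s (2.22), and Fzr1, its other activator (1.55). Light zone gate cells had 8 of the 19 lower and 1 higher than dark zone gate cells, where 12.2% of all genes were lower and 14.8% higher. The 1 was Anapc10 with 22.1 and 27.5 CPM against 15.6 and 21.3 CPM (0.44, SE 0.10, adjusted p = 0.0015), where the gates did not overlap but came close. Ube2c stood at −0.61, Espl1 at −0.53 and Ube2s at −0.49. Among G2/M-high cells Cenpv, a centromere protein, was the 1 gene of the other kinetochore list that passed, at −0.48 in light over dark zone gate cells and at 0.44 in IgG over IgM cells.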

How the data were processed

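Droplet single-cell RNA was counted in 2 libraries of sorted germinal center B cells. The deposited matrices hold UMI counts per gene and barcode, not normalized. The file headers name version 3.0.2 of the software that wrote them, and the submitters' processing notes name Cell Ranger and mm10. How cells were called, and with which annotation reads were counted, is not given in the sources used here. Members, gene lists and alternatives were chosen with earlier results of these data known.

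The limits of 500 genes, 1000 UMIs and 20% mitochondrial UMIs passed 58.7% and 44.8% of deposited barcodes (75121538 and 61874342 UMIs). Doublets were not called; leaving out the deepest 5% of cells was an alternative. Cells were thinned to 3400 UMIs for zone gates and phase sums, and 465 and 391 shallower cells were left out. Isotypes used unthinned counts. Genes that define a class were left out of its results, and genes of the member and related lists out of the phase lists (Hn1 and Sgol2a under older symbols). Every class was summed per library. The sums were tested with edgeR 4.0.16 in R 4.3.3 (quasi-likelihood test, TMM, filterByExpr, library as a replicate block, Benjamini-Hochberg adjustment over all genes tested, threshold 0.05). The block pairs class sums by construction, since they come from the same library, and with mixed or ungated classes in the fit it left 3 residual degrees of freedom, or 2 for isotypes. SE is the log2 fold change divided by the square root of the F statistic. The scripts were tested on simulated data for light over dark, with a spread that was set and not taken from the data. There 65 of 100 genes with a log2 change of 0.5 were recovered, and 100 of 100 with a change of 1. Smaller changes were not simulated, so a member that was not called may still differ. Alternatives used DESeq2 1.42.0, phase calls of scanpy 1.11.5, other limits, gates and scaling, and no block.

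Named are, per comparison, the 8 called members with the largest change in each direction, members of a role group under discussion, those not called, and at most 4 called genes per related list. The values of 1 gene of a related list are not reported here. Gene positions came from GENCODE M21 and promoters from RefSeq (GRCm38.p6). Intervals are exact Clopper-Pearson 95% intervals and cover counting error only. Depths are sums or medians, given without an interval.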

Additional observations from a re-analysis of the deposited data

How the results depend on the processing

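All 35 members stayed higher in G2/M-high than in cycle-low cells in each alternative run, and counts for S-high over cycle-low (33 to 34) and for G2/M-high over S-high (22 to 32) stayed within 1.5 times those reported. Light over dark gave 15 to 22 calls, all lower, except 11 without the replicate block. Without that block edgeR called 0 members for gray over light (6 higher at an unadjusted p below 0.05), gray over dark (14 lower), light over dark within G2/M-high cells (1 lower) and both isotype comparisons (0 and 0). The block stands for the library, which class sums share by construction.

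Called members at mitochondrial limits of 10% and 40% numbered 2 and 5 for gray over light, 5 and 6 for gray over dark, 1 and 10 for IgG over IgM (at 40%, 9 higher and 1 lower), 0 and 1 for light over dark within G2/M-high cells, and 0 and 4 for IgG over IgM within them (edgeR, 2 higher at an unadjusted p below 0.05 at 10%). The 1 member called for IgG over IgM at 10% was not among the 4 reported, which all missed the threshold there. With unthinned gates called members numbered 25 (gray over light) and 7 (gray over dark, 6 of them higher), and with isotypes on thinned counts 10. Gates of at least 2 UMIs gave 1, 5 and, within G2/M-high cells, 1 (light over dark), with as few as 14 gray zone gate cells in library 2. Summing thinned counts gave 4 (gray over light), 6 (gray over dark), 2 (IgG over IgM) and 0 (IgG over IgM within G2/M-high cells, 5 at an unadjusted p below 0.05), and leaving out the deepest cells gave 7 (gray over dark). DESeq2 gave 7 (gray over dark), 2 (IgG over IgM) and 0 within G2/M-high cells (1 at an unadjusted p below 0.05). Phases called by scanpy gave 6 (light over dark) and 3 (IgG over IgM) within its G2/M cells. The share of all genes called is not given for these settings, and the cause of these shifts was not tested.

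Reversed single members over light were Cenpm (−0.12 at 10%), Ndc80 (−0.018 at 40%) and, with 2-UMI gates, Spc25 (−1.01) and Bub1b (−0.090). Over dark with unthinned gates they were Ska1 (0.32), Mad2l1 (0.18), Cenpa (0.17), Cenpw (0.11), Cenpk (0.10), Bub1b (0.060) and Ndc80 (0.015), and also Cenpk with 2-UMI gates (0.10) and Cenpw with thinned sums (0.036).

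Leaving out either library leaves no residual degrees of freedom, so only median ratios can be given. They ran from 0.12 to 0.15 (gray over light), −0.23 to −0.18 (gray over dark), 2.33 to 2.44 (G2/M-high over cycle-low), −0.12 to 0.0057 (light over dark within G2/M-high cells) and −0.040 to 0.021 (IgG over IgM within them).

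The difference in G2/M-high share at limits of 10% and 40% was −19.9 and −12.5 points for light minus dark, 6.87 and 6.63 for gray minus light, −13.1 and −5.84 for gray minus dark (−1.12 in library 2 at 40%), and 2.78 and 2.24 for IgG minus IgM (−0.027 and 0.937 in library 1). Other alternatives for shares were added after seeing the data. Unthinned gates and phases gave 18.1 (gray minus light) and 3.47 (gray minus dark, turned in both libraries), and isotypes on thinned counts 6.32. Gates of at least 2 UMIs gave −19.6 (light minus dark), −0.016 (gray minus light) and −19.6 (gray minus dark), and scanpy phases −21.2, −11.0 (gray minus dark) and 3.84 (IgG minus IgM).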
